A study of Xenopus laevis with 4 samples.

Results

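Cadherin and protocadherin genes were examined for methylated DNA in embryos of the frog Xenopus laevis before zygotic genome activation (ZGA). Members were all protein-coding genes of the RefSeq table for genome version 10.1 whose symbol begins with cdh or pcdh. The rule gave 68 of 34461 protein-coding genes on the 18 chromosomes. It used names only and no measured value. There were 27 pcdh genes, of which 7 belonged to the clustered pcdha and pcdhg groups and 20 were single genes, and 41 cdh genes, of which 7 were cadherin-related cdhr genes. Each of the 68 symbols ended in .L or .S, for the L and S subgenomes of this allotetraploid species. Symbols that differed only in this ending formed 29 homeologous pairs, and 10 members had no partner.

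The series holds 4 libraries from whole wild-type embryos at the 256-cell stage, 4.5 h after fertilization, with 250 embryos pooled per replicate. The MBD capture group (2 libraries) holds genomic DNA captured by the methyl-CpG-binding domain of an MBD fusion protein, and the Input group (2 libraries) holds genomic DNA that was not captured. The values below come from the peak lists of the capture group, in which Input served as the authors' background for calling, and the Input libraries were not analysed here. Replicate 1 held 131303 peaks from 17645240 tags and replicate 2 held 222771 peaks from 23909019 tags. With 22.2% and 42.3% of tags in peaks, replicate 2 was the longer list, so each replicate is given by itself. A peak was called recurrent when it overlapped a peak of the other replicate by at least 1 bp, which held for 61.8% of peaks in replicate 1 and 36.2% in replicate 2. With a single group of embryos and 2 libraries, values are described without a test or p-value, and genes are not replicates.

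Cadherins are membrane proteins that bind cells to each other in the presence of calcium. Classical cadherins (type I and type II) bind catenins inside the cell, which link them to actin, while protocadherins carry further extracellular cadherin repeats and signal through other partners. In early Xenopus embryos, maternal C-cadherin (cdh3) holds the blastomeres together, E-cadherin (cdh1) acts in the ectoderm, N-cadherin (cdh2) in the neural plate, and paraxial protocadherin (PAPC, pcdh8) in cell movements at gastrulation. Clustered protocadherins give neurons of vertebrates their surface identity through the choice among many variable first exons, and in mammals methylation of their promoters takes part in that choice.

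Peaks of methylated DNA lay in most cadherin and protocadherin genes, at a summed level close to that of other genes of their length. The 68 members held 390 peaks in replicate 1 and 629 in replicate 2, counted over the gene body and 1 kb at both ends. Their median density was 0.0438 peaks per kb in replicate 1 and 0.0613 in replicate 2 (0.0526 ± 0.0124, SD, n = 2 libraries), against 0.0239 and 0.0610 over all coding genes. Members were long genes, with a median length of 61.4 kb against 17.2 kb over all coding genes, and density varied with length. Each member was therefore set beside the 500 other coding genes nearest to it in length. Relative to these, the summed peaks of the members amounted to 0.991 of the length-matched level in replicate 1 and 0.944 in replicate 2 (0.968 ± 0.033, SD, n = 2 libraries). Long genes weigh most in this sum. The 57 members of 20 kb or more stood at 0.999 and 0.950, and the 11 shorter ones at 0.419 and 0.472.

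At least 1 recurrent peak lay in 48 of the 68 members (70.6%), against 42.2% of all coding genes and 71.3% of the length-matched genes. Any peak at all lay in 55 members in replicate 1, where 54.8% of coding genes held one, and in 60 members in replicate 2, where 68.7% did. No peak of either replicate lay in 7 of the 68 members, against 26.6% of all coding genes and 8.19% of the length-matched genes. Density exceeded the median of the length-matched genes in 36 members in replicate 1 and in 30 in replicate 2, of which 25 did so in both, and 20 lay below that median in both. The family as a whole thus stood near the middle of genes of its length, with members on both sides.

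**Figure D1:**
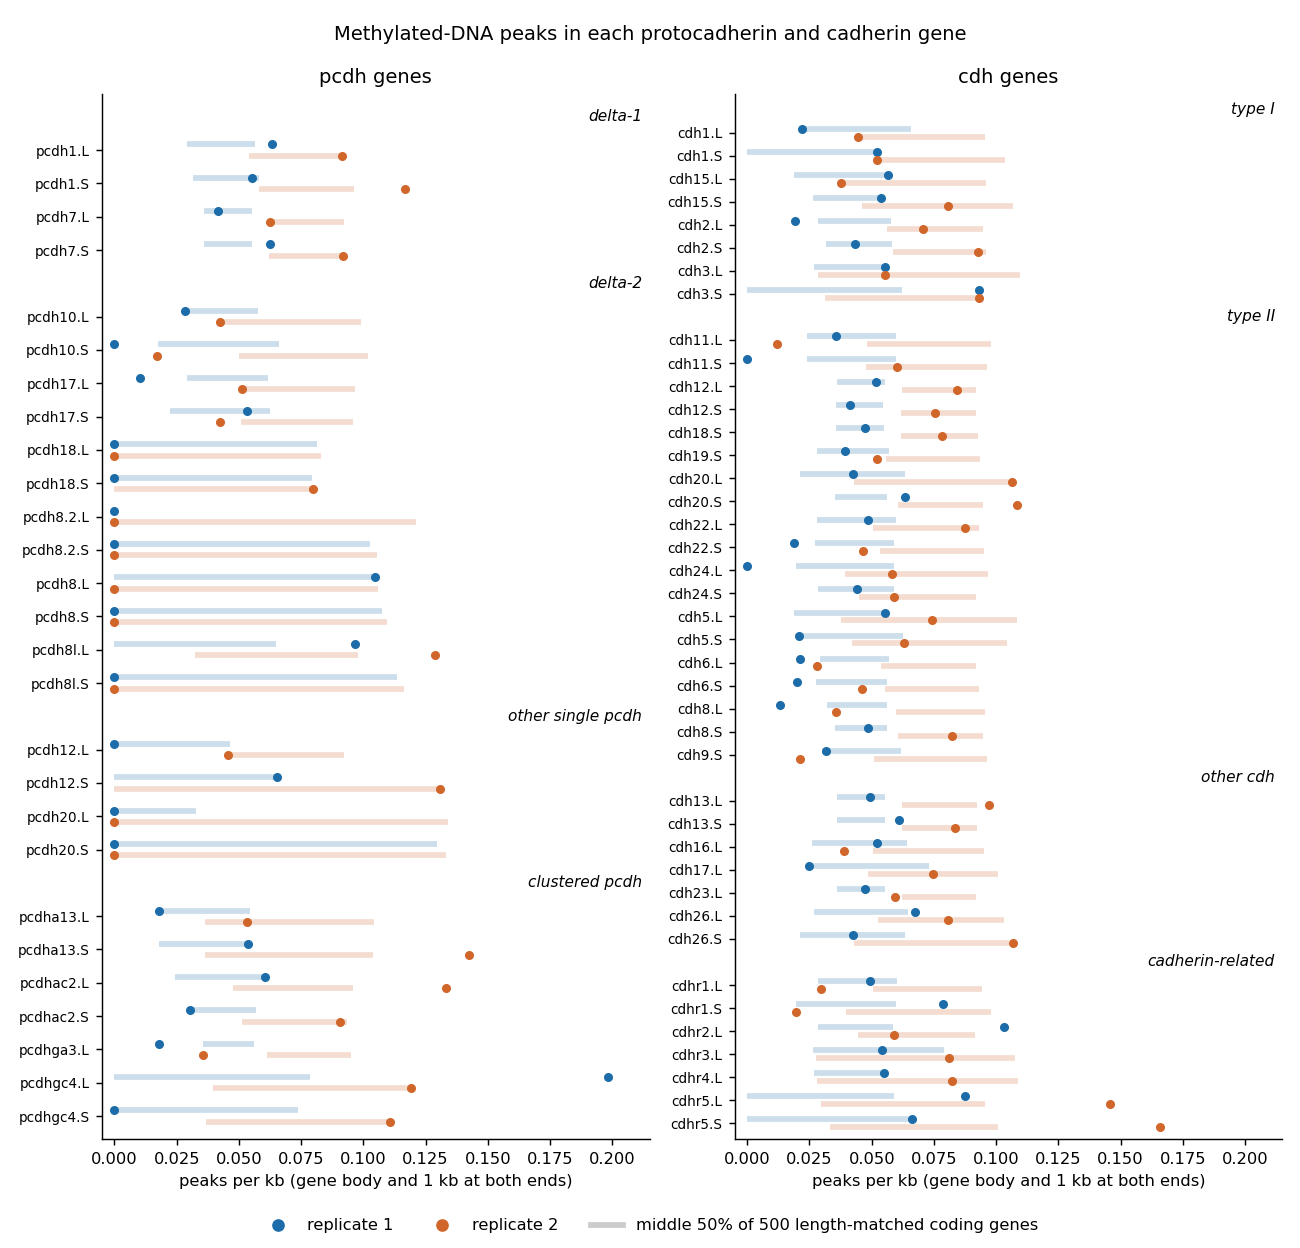
Peaks per kb (gene body and 1 kb at both ends) for each protocadherin (left) and cadherin gene (right), with replicate 1 and replicate 2 as points. A faint bar in the colour of the replicate marks the middle 50% of the 500 length-matched coding genes. Most of the 68 points of a replicate lie in or near the faint bars, pcdhgc4.L lies farthest to the right at 0.198 in replicate 1, and 7 genes have both points at 0.

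The type I classical cadherins (8 genes) include the adhesion molecules of the early embryo. Both homeologs of C-cadherin, the maternal cadherin, held peaks, as did most genes of their length. Only 4.4% of the genes length-matched to cdh3.L and 8% of those matched to cdh3.S had no peak in either replicate. cdh3.L (4L, 55350923 to 55385139) held 2 peaks in each replicate and cdh3.S (4S, 43337930 to 43368179) held 3 in each, which gave 0.0552 peaks per kb on L and 0.0930 on S in both replicates. Of these, 1 peak per homeolog was recurrent, and that of cdh3.L lay just outside the gene, at 55385906 to 55386556 in replicate 1 and 55385774 to 55386274 in replicate 2. Its neighbour cdh1, which encodes E-cadherin, lies next to cdh3 on both chromosomes and was sparser. cdh1.L held 1 peak in replicate 1 and 2 in replicate 2, none of them recurrent, while cdh1.S held 2 in each replicate with 1 recurrent. cdh2.L, the gene of N-cadherin, held 3 and 11 peaks and cdh2.S held 7 and 15. These genes span 153 kb on L and 160 kb on S, and on L the density was 0.0193 and 0.0708 per kb, against length-matched medians of 0.0417 and 0.0736. cdh15, which encodes the muscle cadherin, held 3 and 2 peaks on L and 2 and 3 on S. The summed peaks of the type I genes were 0.941 and 0.946 of the length-matched level, and 7 of the 8 genes had a recurrent peak (69.9% of their length-matched genes).

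The type II classical cadherins (19 genes) held fewer peaks than their length-matched genes in both replicates, at 0.872 and 0.895 of that level (0.883 ± 0.016, SD, n = 2 libraries). Density lay below the length-matched median in both replicates in 11 of the 19 genes and above it in both in 7, and 15 had a recurrent peak (89.0% of their length-matched genes). Several of the sparsest members were of this type. cdh8.L (4L, 48482697 to 48705688), the gene of a cadherin of the brain, held 3 and 8 peaks over 223 kb, or 0.0133 and 0.0356 per kb. A stretch of 80.0 kb, 35.9% of the gene, was free of peaks. Such stretches were not measured in length-matched genes. cdh6.L held 3 and 4 peaks over 140 kb, cdh9.S 3 and 2 over 92.9 kb and cdh11.L 3 and 1 over 82.5 kb. All 4 genes lay below their length-matched medians in both replicates. cdh11.S, which encodes a cadherin of the migrating neural crest, had no peak in replicate 1 and 5 in replicate 2. By contrast, cdh12.L, the longest type II gene at 580 kb, held 30 and 49 peaks (0.0516 and 0.0842 per kb) and cdh20.S held 17 and 29 (0.0635 and 0.108 per kb), both above their matched medians. cdh5, which encodes VE-cadherin of blood vessels, held 3 and 4 peaks on L, all 3 of replicate 1 recurrent, and 1 and 3 on S with none recurrent.

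The other cadherins (7 genes) included the longest member. All 7 had a recurrent peak, as did 85.7% of their length-matched genes. cdh23.L (7L, 44166929 to 44755822), which encodes a protein of the tip links between the stereocilia of hair cells, spans 588.9 kb and held 28 and 35 peaks, 20 of them recurrent in each replicate. It is overlapped by 3 other coding genes. In all, 4 members are overlapped by other coding genes (cdh23.L, cdh12.L, pcdh12.L and pcdhga3.L), and peaks in those genes were not separated. The gene of T-cadherin, which lacks the cytoplasmic part and is anchored by a lipid, was similar in length on both subgenomes. cdh13.L held 26 and 51 peaks over 523 kb and cdh13.S held 32 and 44 over 524 kb. Summed over the 7 genes, peaks reached 1.13 of the length-matched level in replicate 1 and 1.01 in replicate 2.

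Among the cadherin-related genes (7 genes), the microvillar gene cdhr5 had the highest density averaged over the replicates. cdhr5.L (4L, 23934390 to 23966717) held 3 and 5 peaks (0.0874 and 0.146 per kb) and cdhr5.S (4S, 3238556 to 3266702) held 2 and 5 (0.0663 and 0.166 per kb). A wide recurrent region of cdhr5.L, at 23944476 to 23946359, measured 1795 bp in replicate 1 and 1768 bp in replicate 2. cdhr2.L, which encodes a partner of cdhr5 on microvilli, held 7 peaks in replicate 1 and 4 in replicate 2, or 0.103 and 0.0589 per kb, which made it the densest of the subgroup in replicate 1. The replicates differed over this subgroup, with summed peaks at 1.59 of the length-matched level in replicate 1 and 0.901 in replicate 2. All 7 genes lay above their length-matched median in replicate 1, and 4 did in replicate 2. cdhr1.S, a homeolog of a gene for a photoreceptor cadherin, held 4 peaks in replicate 1 and 1 in replicate 2 with none recurrent.

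The delta-1 protocadherins (4 genes) were long, and 3 of them lay above their length-matched medians in both replicates. pcdh7, which encodes the neural fold protocadherin of Xenopus, held 22 and 33 peaks on L and 36 and 53 on S, with 15 recurrent on L and 24 on S. pcdh7.L was the exception, at 0.0417 and 0.0626 per kb against length-matched medians of 0.0442 and 0.0765. pcdh1, which encodes axial protocadherin, held 9 and 13 peaks on L and 9 and 19 on S, with 6 recurrent on each. Summed peaks stood at 1.17 and 1.08 of the length-matched level, and all 4 genes had a recurrent peak, as did 98.3% of their length-matched genes.

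The delta-2 protocadherins (12 genes) were the sparsest of the larger subgroups, at 0.655 and 0.569 of the length-matched level (0.612 ± 0.061, SD, n = 2 libraries). A recurrent peak lay in 4 of the 12 genes (33.3%), against 43.4% of their length-matched genes, and 5 of the 12 had no peak in either replicate, against 26.1% of those genes. The pcdh8 and pcdh8.2 genes other than pcdh8.L were among the empty genes, and pcdh8 itself is the PAPC gene. pcdh8.S, pcdh8.2.L and pcdh8.2.S, all between 6.26 and 7.59 kb long, were empty in both lists, and the nearest peaks lay 9.37 and 6.57 kb, 6.55 and 6.16 kb, and 4.82 and 4.83 kb away in the replicates. pcdh8.L (2L, 138317647 to 138325191) had a single peak in replicate 1, at 138325340 to 138325840, which lay 149 bp beyond the gene and had no counterpart in replicate 2. No peak of either replicate thus lay inside any of the 4 pcdh8 and pcdh8.2 genes. Empty genes were common at this length. Of the length-matched genes, 43.2% (pcdh8.L), 49.8% (pcdh8.S), 50.4% (pcdh8.2.L) and 42.8% (pcdh8.2.S) had no peak in either replicate, counted with 1 kb at both ends. pcdh18 genes, 10.3 kb on L and 10.5 kb on S, held none on L and a single peak outside the S gene in replicate 2, 0.836 kb away.

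pcdh10 encodes OL-protocadherin, named for the olfactory system. pcdh10.S (1S, 51698496 to 51755483) had no peak in replicate 1 and 1 in replicate 2, and 47.8 kb of its 57.0 kb, or 84.0%, formed a single stretch without a peak in either list. pcdh10.L held 2 and 3 peaks over 68.7 kb with 1 recurrent. Its neighbourhood was not empty, since the nearest replicate 1 peak lay 1.09 kb outside pcdh10.S. pcdh8l, the gene of a protocadherin of neural crest and somites, showed the opposite on its longer homeolog. pcdh8l.L, at 29.0 kb, held 3 and 4 peaks (0.0967 and 0.129 per kb), among the highest of the family, while pcdh8l.S, annotated at 6.65 kb, held none.

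**Figure D2:**
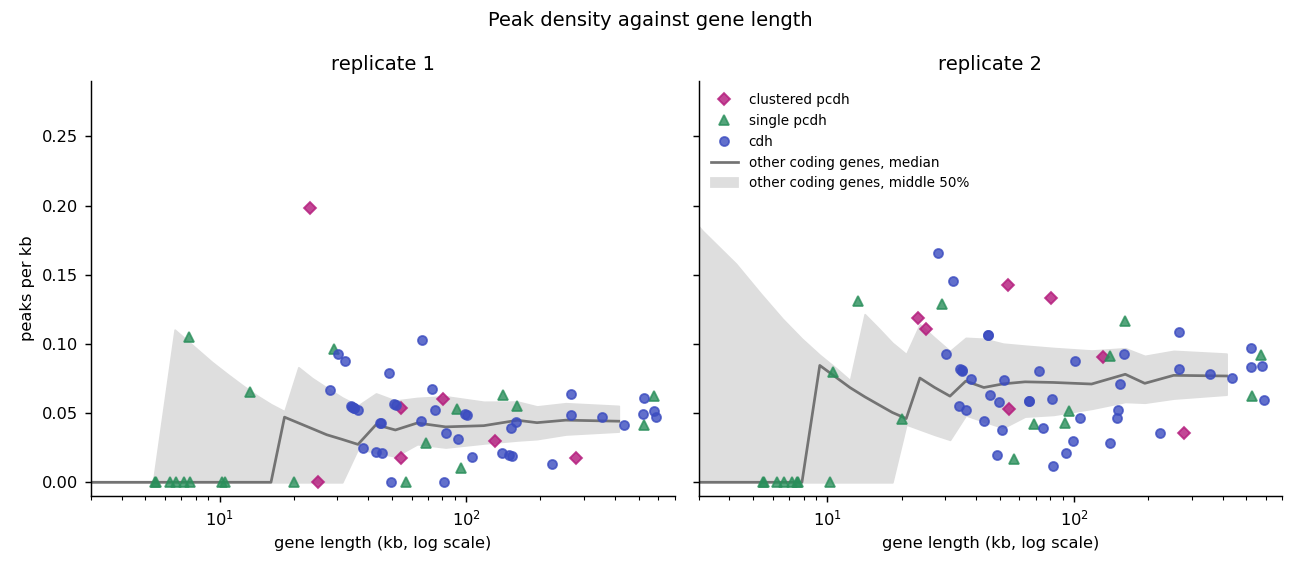
Peaks per kb (vertical axis) against gene length in kb (horizontal axis, log scale) for clustered pcdh, single pcdh and cdh genes as points in each replicate, with the median (line) and the middle 50% (grey) of other coding genes. Members of 20 kb or more scatter around the line, while most of the 11 shorter members, all of them single pcdh genes, lie at 0.

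Short length went with absence of peaks. All 7 empty members, which were pcdh20.L and pcdh20.S besides pcdh18.L, pcdh8.S, pcdh8.2.L, pcdh8.2.S and pcdh8l.S, were shorter than 20 kb. Of the 11 members of that length, 7 were empty, against 41.1% of their length-matched genes. A recurrent peak lay in 1 of the 11 (9.09%), against 20.6% of those genes. Together the 11 held 2 and 4 peaks, at 0.419 and 0.472 of the length-matched level. They were thus sparser than genes of like length, although on few peaks. Within 50 kb on either side, the same 11 genes had medians of 0.04 and 0.08 peaks per kb, equal to those around other coding genes under 20 kb. The sequence around the short protocadherins thus held peaks at the level seen around other short genes. pcdh20.L, the shortest member at 5.47 kb, had its nearest peaks 28.7 and 10.05 kb away.

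The clustered protocadherins (7 genes) lie on chromosomes 3L and 3S. pcdhgc4.L (3L, 33813886 to 33837090) had the highest density of all members averaged over the replicates, with 5 and 3 peaks in 23.2 kb (0.198 and 0.119 per kb), of which 3 were recurrent in each. Its homeolog pcdhgc4.S had none in replicate 1 and 3 in replicate 2 (0.111 per kb). pcdha13 showed the opposite lean, with 1 and 3 peaks on L, none recurrent, and 3 and 8 on S, 2 of them recurrent. pcdhac2.L held 5 and 11 peaks over 80.6 kb, all 5 of replicate 1 recurrent, and pcdhac2.S held 4 and 12 over 131 kb, of which 1 was recurrent in each. A stretch of 63.1 kb in pcdhac2.S, 48.3% of the gene, held no peak. The longest such stretch made up between 17.2% (pcdhac2.L) and 51.3% (pcdhgc4.S) of the 7 clustered genes. pcdhga3.L, annotated over 279 kb and overlapped by another coding gene, had the lowest density of the clustered genes in replicate 2, with 5 and 10 peaks (0.0178 and 0.0356 per kb) against length-matched medians of 0.0445 and 0.0774. Variable exons of these clusters resemble each other, so that reads may not have been placed uniquely, and the part of this in the counts was not tested.

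The stretch from pcdha13 to pcdhgc4, which leaves out pcdhga3.L farther along 3L, spans 827 kb on 3L (33010310 to 33837090) and 787 kb on 3S (119441893 to 120228632), in reversed coordinate order. The 3L span held 35 and 45 peaks, 22 of them recurrent, at 0.0423 and 0.0544 per kb, against 0.0425 and 0.0741 over its chromosome. The 3S span held 28 and 62 peaks, 15 recurrent, at 0.0356 and 0.0788 per kb, against 0.0481 and 0.0829 over its chromosome. The 3L span stood almost at the density of its chromosome in replicate 1 and below it in replicate 2. The 3S span lay below that of its chromosome in both replicates, by little in replicate 2. Each span holds 8 coding genes in all, of which 3 carry a pcdh symbol, so genes of the span under other names are not among the members.

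Median density was higher in clustered than in single protocadherin genes in both replicates, at 0.0302 and 0.111 per kb against 0.00514 and 0.0425 (difference 0.0467 ± 0.0306, SD, n = 2 libraries). Summed over genes, the order was the other way in replicate 1, with 0.0348 and 0.0756 peaks per kb in clustered and 0.0472 and 0.0738 in single genes. Relative to length-matched genes, summed peaks were 0.778 and 0.991 in clustered and 1.04 and 0.961 in single genes. The sum of the single genes rested mostly on the 4 long delta-1 genes, which held 76 of its 89 peaks in replicate 1 and 118 of 139 in replicate 2. By themselves, the delta-2 genes stood at 0.655 and 0.569 of the length-matched level and the 4 other single genes at 0.475 and 0.810. A recurrent peak lay in 5 of 7 clustered genes, against 74.3% of their length-matched genes, and in 9 of 20 single genes (45%), against 50.4% of theirs. Length differed between the groups, because all clustered genes exceeded 20 kb while 11 of the single genes did not. Among the 9 single genes of 20 kb or more, medians were 0.0531 and 0.0626 per kb, above the clustered genes in replicate 1 and below them in replicate 2. The difference at matched minimum length was 0.0126 ± 0.0504 (SD, n = 2 libraries), smaller than its spread.

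The comparison of the pcdh with the cdh genes also changed with the lengths of the genes included. Median density was 0.0178 and 0.0514 per kb in pcdh genes and 0.0486 and 0.0708 in cdh genes, a difference of -0.0251 ± 0.0080 (pcdh minus cdh, SD, n = 2 libraries). A recurrent peak lay in 14 of 27 pcdh genes (51.9%) and in 34 of 41 cdh genes (82.9%). Median length was 29.0 kb in pcdh and 74.8 kb in cdh genes, and length-matched genes had recurrent peaks in 56.6% and 81.0% of cases. Among members of 20 kb or more, the 16 pcdh genes had medians of 0.0474 and 0.0909 per kb and the 41 cdh genes 0.0486 and 0.0708. That difference was 0.0095 ± 0.0150 (SD, n = 2 libraries) and had the other sign. This cut left out 11 single pcdh genes and no cdh gene, so length and subgroup cannot be told apart. Summed peaks relative to length-matched genes were 0.974 and 0.969 in pcdh and 0.999 and 0.934 in cdh genes, so the families differed by less than the spread of the cdh genes between replicates.

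Extreme densities for a given length were rare among the members and among coding genes alike. Places were taken among the 500 coding genes nearest in length, here with members included. Of the 57 members of 20 kb or more, pcdh10.S, pcdhga3.L and cdh8.L had under 10% of these genes below them in both replicates. This was 3 of 57, against 5.95% of coding genes of that length. A gene without a peak has none below it, however many tie with it, so this share includes such ties. No member fell in the highest 10% in both replicates, against 3.95% of coding genes. Densities of the replicates had a Spearman's rho of 0.479 across the 57 members and 0.526 across 15500 other coding genes of that length. These are descriptions across genes, which share the libraries and their depth.

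**Figure D3:**
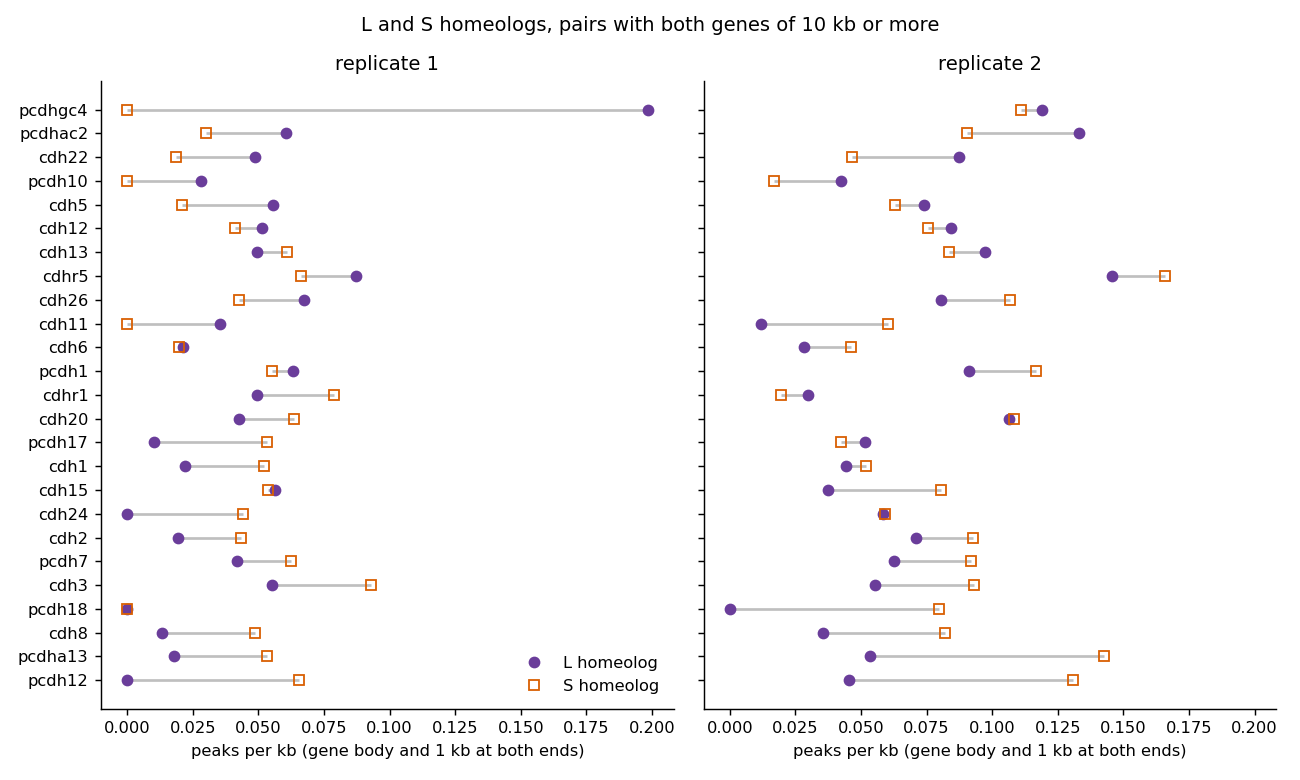
Peaks per kb of the L (filled circle) and the S (open square) homeolog for each of the 25 cadherin and protocadherin pairs with both genes of 10 kb or more, in replicate 1 (left) and replicate 2 (right). L lies to the right of S in both replicates in 6 pairs, and S to the right of L in 9.

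Homeologs of the same gene often differed, with no single lean. Across the 29 pairs, the median L minus S difference was 0 in replicate 1 and -0.0018 per kb in replicate 2. L was denser in both replicates in 7 pairs (24.1%, against 21.9% of 7759 coding pairs) and S in 9 (31.0%, against 28.5%). In 9 of the 29 pairs the sign differed between the replicates, against 1871 of the 7759 coding pairs. Both homeologs held a recurrent peak in 15 pairs (51.7%, against 29.7% of coding pairs). L alone held one in 6, S alone in 4 and neither in 4, against 1288, 1401 and 2764 of the 7759 coding pairs. Restricted to pairs of genes of 10 kb or more, L was denser in both replicates in 6 of 25 (24%, against 25%) and S in 9 (36%, against 33.1%), and both homeologs held a recurrent peak in 15 (60%, against 39.6%). These shares of pairs were not matched for length, and members were longer than coding genes at large (medians of 61.4 and 17.2 kb). Per gene, recurrent peaks were about as frequent in members as in length-matched genes (70.6% against 71.3%).

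The most unequal pairs, both genes of 10 kb or more, were pcdhgc4, pcdh12, pcdha13, cdh8 and pcdh18. All but cdh8 rest on few peaks. pcdh12, which encodes a protocadherin of blood vessels, held 0 and 1 peaks on L and 1 and 2 on S. cdh8 was unequal over long genes, with 3 and 8 peaks on L and 13 and 22 on S, or 0.0133 and 0.0356 per kb on L and 0.0486 and 0.0822 on S. Its recurrent peaks numbered 1 on L and 10 on S. pcdh7 leaned to S too (22 and 33 on L, 36 and 53 on S), as did cdh2 and cdh3. cdh22 leaned to L, with 5 and 9 peaks on L and 2 and 5 on S. cdh11 changed sides, with 3 and 1 peaks on L and 0 and 5 on S. In some pairs the annotated lengths differed, as in cdh20 (44.97 kb on L and 265.8 kb on S) and pcdh8l (29.0 kb on L and 6.65 kb on S), so that homeologs were not always scored over like sequence.

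**Figure D4:**
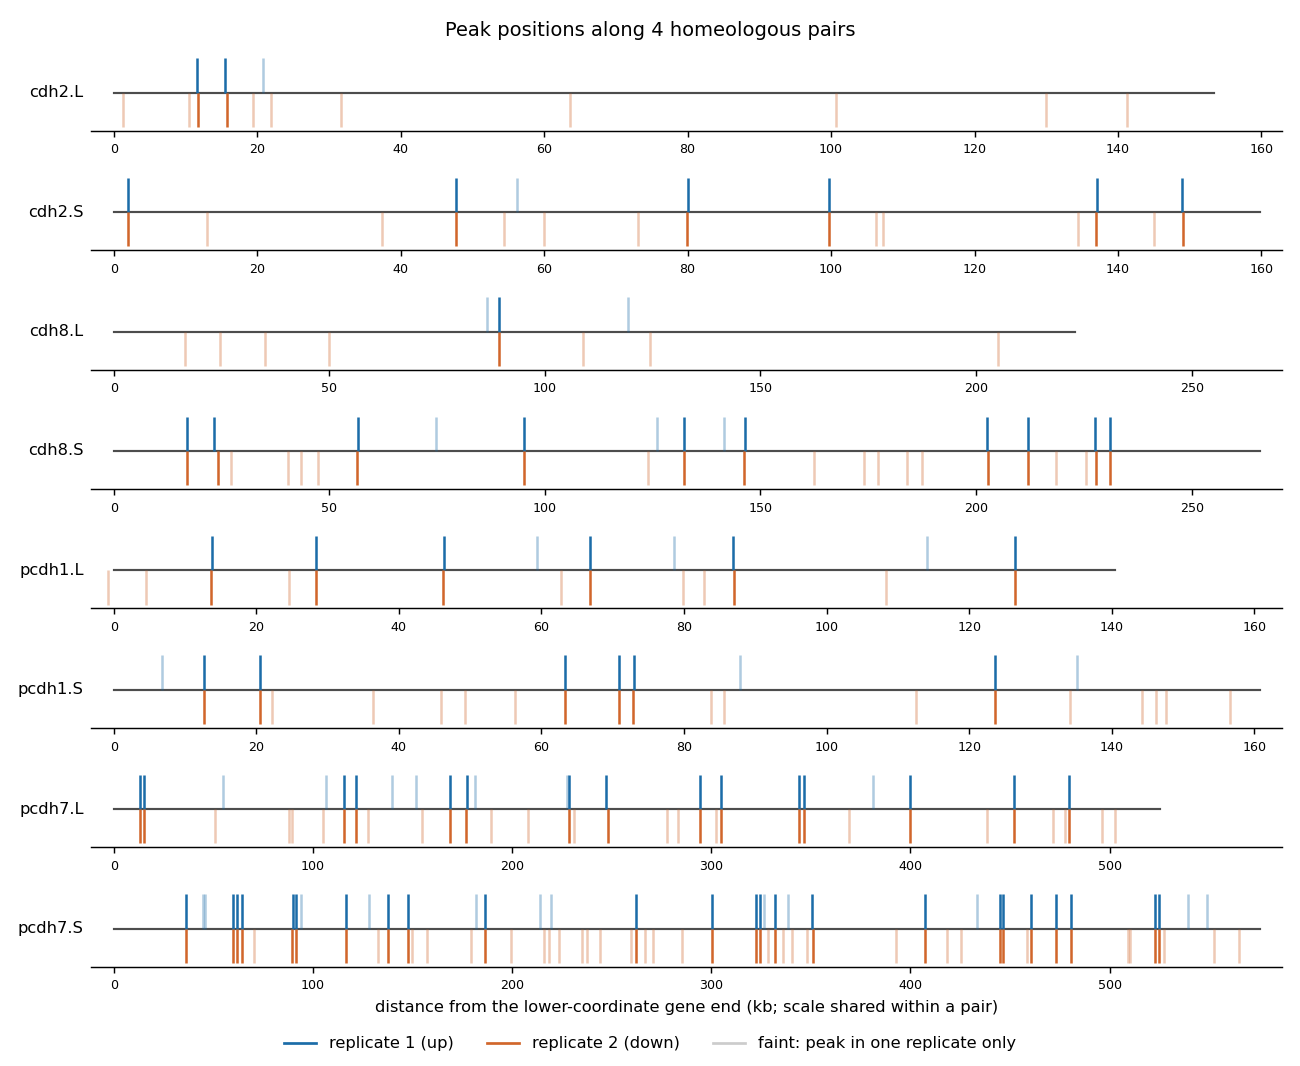
Peak positions along both homeologs of 4 pairs, in kb from the gene end of lower coordinate, with replicate 1 above and replicate 2 below each line and peaks of 1 replicate only drawn faint. cdh8.L has 1 recurrent peak in replicate 1 and a gap of 80.0 kb, while cdh8.S has 10 recurrent peaks spread over the gene.

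Homeologs also kept their order along a long stretch of chromosome. The members cdh8, cdh11, cdh5, cdh15, cdh1, cdh3 and cdh13 follow in the same order on 4L (48482697 to 57591495) and 4S (37141428 to 45419188). In this stretch S was denser in both replicates for cdh8, cdh1 and cdh3, L for cdh5, and neither for cdh11, cdh15 and cdh13. Members of this stretch thus did not all lean to the same side.

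Gene ends held recurrent peaks about as often as in other coding genes. Within 1 kb of an end, 7 members had a recurrent peak (10.3%), against 10.7% of all coding genes and 10.5% of length-matched genes. These were pcdhgc4.L, pcdhac2.S, pcdh12.S, cdh3.L, cdh6.S, cdhr1.L and cdhr5.S. No member had one at both ends, against 0.479% of coding genes. The transcription start was not known for either end. Sites at protocadherin genes all lay on chromosomes 3L and 3S, namely 33813486 to 33813986 across the low end of pcdhgc4.L on 3L, 119955130 to 119955630 across that of pcdhac2.S on 3S and 14230830 to 14231330 outside pcdh12.S on 3S, all from replicate 1.

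Inside the ends, the first kb was nearly bare in the 57 members of 20 kb or more. Peaks covered 0.112% of these bases in replicate 1 and 0.723% in replicate 2, against 1.17% and 2.44% in other coding genes of that length. A peak reached into this kb at 2 and 4 of 114 ends (1.75% and 3.51%), against 3.85% and 7.43% of 31000 ends. The counts behind this difference are small. In the first kb outside, 7 and 14 of the 114 ends had a peak (6.14% and 12.3%), against 7.09% and 12.8%. Members were also lower from 1 to 2 kb inside, where peaks covered 1.47% and 2.45% of bases, against 2.37% and 4.54%. From 2 to 5 kb inside, the values were 2.18% and 3.66%, against 2.34% and 4.37%. From 5 to 10 kb inside, they were 2.81% and 3.80%, against 2.60% and 4.90%. Further than 10 kb inside the members, peaks covered 2.90% and 5.04% of bases, against 2.77% and 5.09% in other coding genes.

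**Figure D5:**
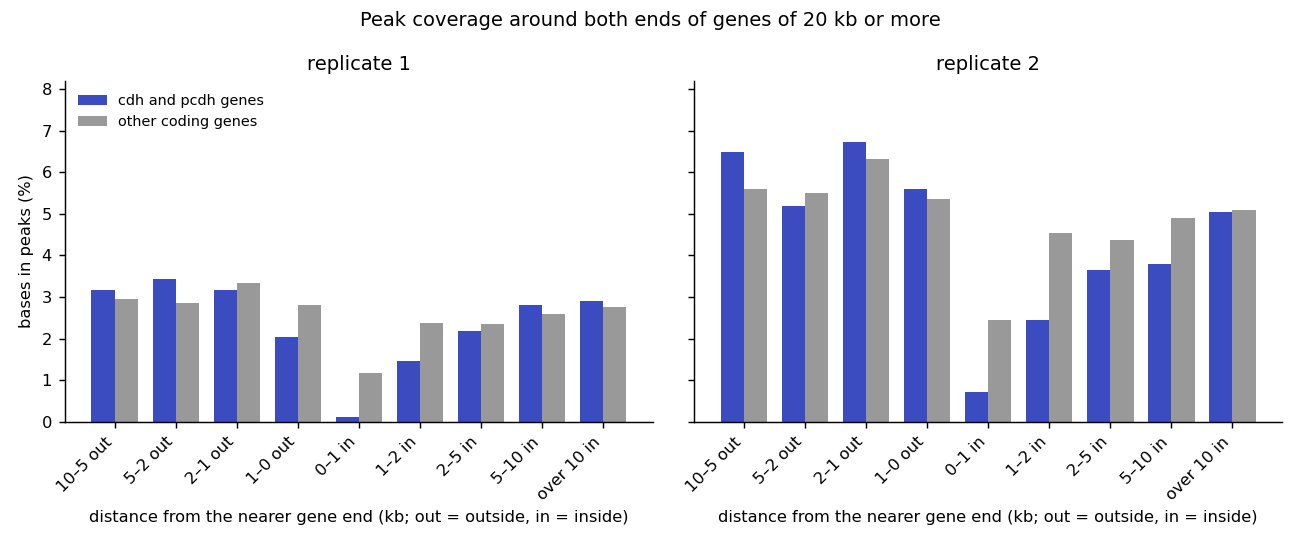
Share of bases in peaks (%) by distance from the nearer gene end in kb, outside and inside the gene, for the 57 cadherin and protocadherin genes of 20 kb or more and for 15500 other coding genes, in each replicate. Members and other genes are lowest in the first kb inside the gene, where members stand at 0.112% in replicate 1 and 0.723% in replicate 2.

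The peaks themselves resembled those of other coding genes. Their median width was 501 bp in both replicates, the commonest width in the lists, and 71.0% and 67.4% had exactly that width, against 69.3% and 63.2% of peaks in all coding genes. Of the member peaks, 63.1% in replicate 1 and 38.8% in replicate 2 were recurrent, against 60.9% and 35.2% of peaks in all coding genes. They formed 243 recurrent regions in the 48 genes, with a median extent of 633 bp. Wide peaks of 2 kb or more numbered 1 in replicate 1 and 11 in replicate 2, or 0.26% and 1.75% of member peaks, against 0.52% and 1.197% of peaks in all coding genes. Ranked by the bases in peaks of the replicate that had fewer, the first recurrent regions lay in cdh18.S, cdh12.L and cdh13.S. The region of cdh18.S (6S, 65718839 to 65721943) was a peak of 2412 bp in replicate 1 and of 3105 bp in replicate 2. In cdh12.L (6L, 84099735 to 84104544), 3 peaks of 914, 836 and 501 bp in replicate 1 met a single peak of 4645 bp in replicate 2. The region of cdh13.S (4S, 44985403 to 44987893) was a peak of 1977 bp and of 2467 bp. By total extent cdh12.L came first with 4810 bp, followed by a region of 3444 bp in cdh8.S. cdh18 and cdh12 encode type II cadherins of the brain.

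Other genes of the cadherin superfamily and genes that act with cadherins were scored in the same way from fixed lists. Among other members of the cadherin superfamily, which are desmosomal cadherins, fat, dchs, celsr, calsyntenin and ret genes, 12 of 20 symbols were matched, to 20 genes. A recurrent peak lay in 16 of them (80%), against 78.4% of their length-matched genes, with summed peaks at 0.862 and 0.907 of the matched level. Among catenins and other adhesion partners, 19 of 21 symbols were matched, to 31 genes, of which 21 had a recurrent peak (67.7%, against 73.9%), with summed peaks at 0.914 and 0.993. ctnnb1, the gene of beta-catenin that binds classical cadherins and carries the Wnt signal, spans 17.1 kb on L and 17.8 kb on S. It held no recurrent peak, with 0 and 0 peaks on L and 1 and 0 on S. ctnna2.L, the gene of the neural alpha-catenin, spans 1040.5 kb and held 65 and 110 peaks, 49 of them recurrent. Per kb, this was 0 and 0 in ctnnb1.L, 0.0505 and 0 in ctnnb1.S and 0.0624 and 0.106 in ctnna2.L. No length-matched level is given for ctnnb1 or ctnna2.L alone, and the part of length in their difference was not tested.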

How the data were processed

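MBD-seq libraries of 256-cell embryos were compared through the peak lists of the 2 MBD capture samples. Per the file headers and the study's methods, the authors aligned reads to genome version 10.1 with bowtie and called broad regions for each replicate against its own Input with HOMER 4.11 (submitters' processing notes; histone style, 500 bp windows, joining within 1000 bp, 4-fold over Input, p-values of 0.001 and 0.0001, at least 12 tags in replicate 1 and 15 in replicate 2). Every peak of the deposited lists has a score of 1, so the values used are positions, another kind of value than a height, and methylated sequence of few CpGs or unplaced reads can lack a peak. Headers named 13 columns and rows held 6. Listing order was taken as rank, an inference. The study describes its replicates as independent biological ones.

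Peaks were counted at 1 bp of overlap over each gene and 1 kb at both ends, in 1-based coordinates, for 34461 of 44456 RefSeq genes. The gene table gave no strand, so both ends replaced the planned TSS window. Length-matched genes were the 500 coding genes nearest in length, members left out. Summed peaks were divided by the sum that the mean density of these genes gives. Named genes were 8 early-embryo genes with both homeologs, the 8 densest, the 5 sparsest of 20 kb or more, the 6 longest, the 5 most unequal pairs of 10 kb or more, clustered genes and the 3 with the widest recurrent regions, by the replicate with fewer bases in peaks. Others illustrate subgroups and were chosen after their values were seen. Subgroups followed symbols. Members and lists were chosen with earlier results of these data known. Functions were tested on simulated data. Scripts used pandas 2.3.3, matplotlib 3.10.9, scipy 1.17.1 and numpy 2.4.6 under Python 3.11.15.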

Additional observations from a re-analysis of the deposited data

How the results depend on the processing

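Each result was recomputed under other windows, overlaps and list lengths and by leaving out each replicate. Without 1 replicate, median density ranged from 0.0438 to 0.0613 per kb and genes with any peak from 55 to 60. The pcdh minus cdh difference ranged from -0.0308 to -0.0194, clustered minus single from 0.0250 to 0.0683 and L minus S from -0.0018 to 0. Members with any peak, recurrent or not, within 1 kb of an end ranged from 9 to 17 (17 without replicate 1). The end counts that follow are of recurrent peaks, another measure. In the first 49.4% and 49.2% of the lists, median density was 0.0194 per kb and 30 genes had a recurrent peak. The differences were -0.0159 for pcdh minus cdh and 0.0202 ± 0.0236 (SD, n = 2 libraries) for clustered minus single. A recurrent peak lay near an end in 3 genes. With replicate 2 shortened to 134118 peaks, median density was 0.0363 per kb. There, pcdh minus cdh was -0.0158 ± 0.0212 (SD, n = 2 libraries), smaller than its spread. L minus S was 5.48e-05, which turned its sign, and 3 genes had a recurrent peak near an end. As share of bases in peaks, the family median was 2.81%, pcdh minus cdh -1.42, clustered minus single 3.39 and L minus S -0.19 percentage points. L minus S was -0.0035 with 2 kb at both ends. End windows of 500 bp and 2 kb gave 4 and 12 genes with a recurrent peak near an end. Chosen after seeing the data, members of 20 kb or more gave 0.0095 for pcdh minus cdh, a turned sign, and 0.0126 for clustered minus single, and the 23 pairs within 1.5 times in length gave -0.0039 for L minus S. The cause of these shifts was not tested, although shorter lists hold fewer peaks by construction. No paired analysis was possible because numbers are shared only between capture and Input samples, and Input was not used here. Precision is limited by 2 libraries of unequal depth and by the few peaks that a gene holds.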
